A study of Mus musculus with 2 samples.

Results

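Macrophage identity is kept by a small set of transcription factors and by the receptor for M-CSF, the growth factor these cells depend on. The 9 genes described here are Spi1, Cebpa, Cebpb, Cebpd, Maf, Runx1, Mitf, Tfec and Csf1r, taken as a named set together with every probe set that the annotation of the array gives to one of them alone. They had 24 probe sets of the 34958 with a single gene, and they are 9 of 18194 named genes. The arrays compared bone marrow-derived macrophages (BMDMs) from female C57BL/6J mice aged 8 weeks, grown for more than 7 days in M-CSF. One array held RNA of BMDMs kept for 1 hr in medium, given in the labels as RPMI with 10% FCS. The other held RNA of BMDMs kept for 1 hr in the supernatant of apoptotic W3 cells, a mouse T cell line expressing Fas, which had been treated with Fas ligand for 30 min and then left for 60 min in RPMI with 1% FCS. Neither array was repeated and neither held the supernatant of living W3 cells, so apoptosis, W3-conditioned medium and the serum content cannot be told apart. With 1 array per condition no test was possible, and each fold below describes these 2 arrays.

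PU.1, the product of Spi1, is an ETS factor that opens macrophage enhancers, and Runx1 acts before it in blood stem and progenitor cells. The C/EBP proteins are basic leucine zipper factors that bind DNA as dimers. Cebpa is the member that commits progenitors to the myeloid lineage, whereas Cebpb and Cebpd are known as inducible members that respond to cytokines, bacterial products and, for Cebpb, cAMP through CREB. Maf encodes c-Maf, a large Maf protein of mature tissue macrophages. Mitf and Tfec belong to the MiT family of helix-loop-helix zipper factors, which act in osteoclasts and macrophages and on lysosomal genes. Csf1r encodes the tyrosine kinase receptor that reads M-CSF and IL-34. The comparison was therefore arranged as the inducible C/EBP members, Cebpb and Cebpd, against 6 lineage factors, Spi1, Cebpa, Runx1, Maf, Mitf and Tfec, with Csf1r given apart.

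Each value is a MAS5 signal, the brightness of a probe set in linear units. A signal of 38.4 was taken as a floor for dim probe sets, from receptors that macrophages are taken not to express, and signals under it were set to it before ratios were formed. A gene was read by its brightest probe set. The median log2 ratio of supernatant to medium over the 11977 genes above the floor on at least 1 array was -0.02. All 9 members were above the floor on both arrays by this probe set, and 23 of their 24 probe sets were so too.

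The sequences before the start sites are shown first for 4 members, because the annotated starts of Cebpb, Cebpa, Mitf and Tfec differ in the motifs marked below. RefSeq windows were found for 5 of the 9 members, with 8 start sites in all. The promoter table used here held no window for Spi1, Cebpd, Maf and Csf1r. Each window is the 250 bases before a start site in GRCm38.p6, printed 5′ to 3′ on the strand of the gene, and capitals mark TGACG (the core of a cAMP response element, CRE), TGACGTCA (a full CRE), AGGAAG (a motif of ETS factors such as PU.1) and TATAAA, on either strand. Cebpb lies at chr2:167688665-167688914 on the + strand, Cebpa at chr7:35119043-35119292 on the + strand, Mitf (the third of its start sites) at chr6:97991533-97991782 on the + strand, and Tfec at chr6:16898442-16898691 on the - strand.
Cebpb: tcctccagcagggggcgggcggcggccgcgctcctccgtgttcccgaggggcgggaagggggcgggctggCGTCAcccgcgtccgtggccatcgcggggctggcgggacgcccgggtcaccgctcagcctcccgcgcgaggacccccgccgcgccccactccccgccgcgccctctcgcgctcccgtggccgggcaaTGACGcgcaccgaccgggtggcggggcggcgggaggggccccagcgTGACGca
Cebpa: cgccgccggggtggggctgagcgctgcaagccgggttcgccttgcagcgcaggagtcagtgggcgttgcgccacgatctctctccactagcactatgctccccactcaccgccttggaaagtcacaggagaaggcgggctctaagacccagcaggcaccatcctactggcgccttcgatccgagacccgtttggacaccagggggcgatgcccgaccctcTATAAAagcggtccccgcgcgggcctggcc
Mitf: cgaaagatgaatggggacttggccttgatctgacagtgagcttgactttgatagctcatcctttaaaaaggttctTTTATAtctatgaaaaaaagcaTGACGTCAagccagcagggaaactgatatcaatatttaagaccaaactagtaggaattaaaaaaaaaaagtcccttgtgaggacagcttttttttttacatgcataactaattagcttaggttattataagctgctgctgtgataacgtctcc
Tfec: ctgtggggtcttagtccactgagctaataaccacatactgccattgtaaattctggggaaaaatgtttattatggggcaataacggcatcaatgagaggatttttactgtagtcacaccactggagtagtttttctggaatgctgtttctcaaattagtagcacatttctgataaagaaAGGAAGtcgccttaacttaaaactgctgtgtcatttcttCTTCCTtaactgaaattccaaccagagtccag

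The Cebpb window held 3 copies of TGACG, the first bases of which lay at -180, -53 and -7 from the start, the farthest of them on the opposite strand. Of 32851 start sites searched in the same way, 17.8% held at least 1 copy of TGACG, 3.90% at least 2 and 0.688% at least 3. The Cebpb window was 81.6% G and C, and these shares were not matched for base composition. The Cebpa window held no TGACG, and its only marked motif was TATAAA at -30. The first and second start sites of Mitf held no TGACG. The third had the only full CRE among the members, at -153, a motif found in 1.55% of all windows. That CRE is a palindrome, so its 2 copies of TGACG, 1 on each strand, overlap. The same window held TATAAA on the opposite strand at -175, and TATAAA was found in 12.4% of all windows. Tfec had AGGAAG at -71 and, on the opposite strand, at -32, while 29.5% of all windows held at least 1 copy and 6.25% at least 2. In Runx1 1 of 2 start sites held AGGAAG, at -124, and a CACGTG E-box at -71, a motif of 6.02% of windows. The C/EBP motif TTGCNNAA occurred once, at -129 of the first Mitf start, and in 9.56% of windows. These are matches of letters only, and probe sets were not assigned to start sites here. Which of the start sites BMDMs use was not analysed.

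**Figure D1:**
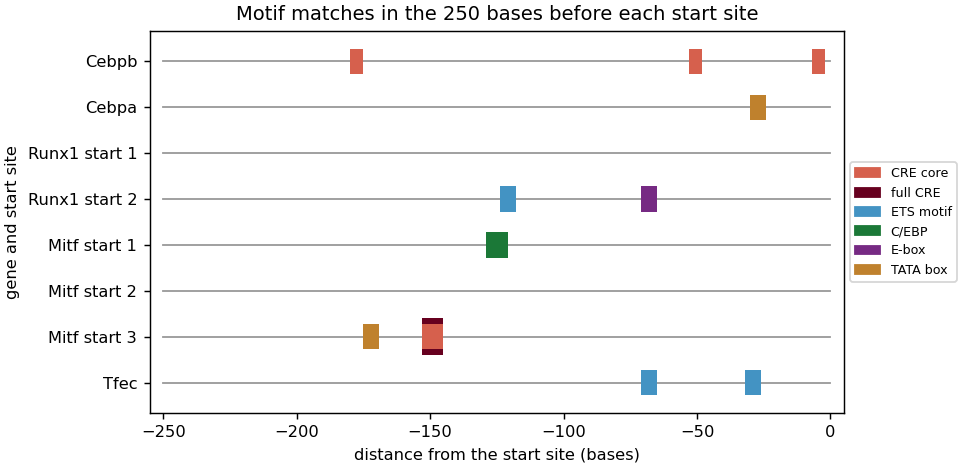
Positions of motif matches in the 250 bases before each of 8 start sites of 5 members, with the distance from the start in bases on the horizontal axis and a line per start site. Cebpb has 3 CRE core matches (TGACG), Mitf start 3 has the full CRE, and Tfec has 2 ETS motif matches (AGGAAG).

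Cebpb was the one member at least 1.5-fold higher in BMDMs treated with the apoptotic cell supernatant, and Cebpd and Cebpa had lower signals. On its brighter probe set Cebpb read 9955 in cells kept with medium and 15690 after the supernatant, 1.58-fold higher. On the dimmer one it read 2376 and 5570, 2.34-fold higher. Both probe sets of this gene thus lay higher with the supernatant. Their log2 ratios of 0.66 and 1.23 differ by more than the typical disagreement between probe sets of a gene. That disagreement had an SD of 0.25 per probe set over 5196 genes, which is the SD of the difference divided by the square root of 2. With the mean log2 signal of both probe sets, Cebpb was 1.92-fold higher. Of all measured genes 2.96% had a higher ratio than Cebpb. Among the 1281 genes whose mean signal on the arrays was at least 4096, where ratios were tight (SD 0.16), 10 genes including Cebpb had a log2 ratio this high, which is 0.781%.

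Cebpd, the other inducible member, did not share this direction. It gave 756 with medium and 498 after the supernatant on its brighter probe set, 1.52-fold lower. Its dimmer probe set read 105 and 91.0, 1.16-fold lower. Cebpa, which is read by a single probe set, gave 1091 and 757, 1.44-fold lower. Cebpd and Cebpa thus lay on the same side, while Cebpb stood apart from both. The log2 ratio of Cebpb exceeded that of Cebpd by 1.26 and that of Cebpa by 1.18. Of 3601 genes with a mean signal from 256 up to 1024, 1.47% had a ratio as low as Cebpd and 2.28% one as low as Cebpa.

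**Figure D2:**
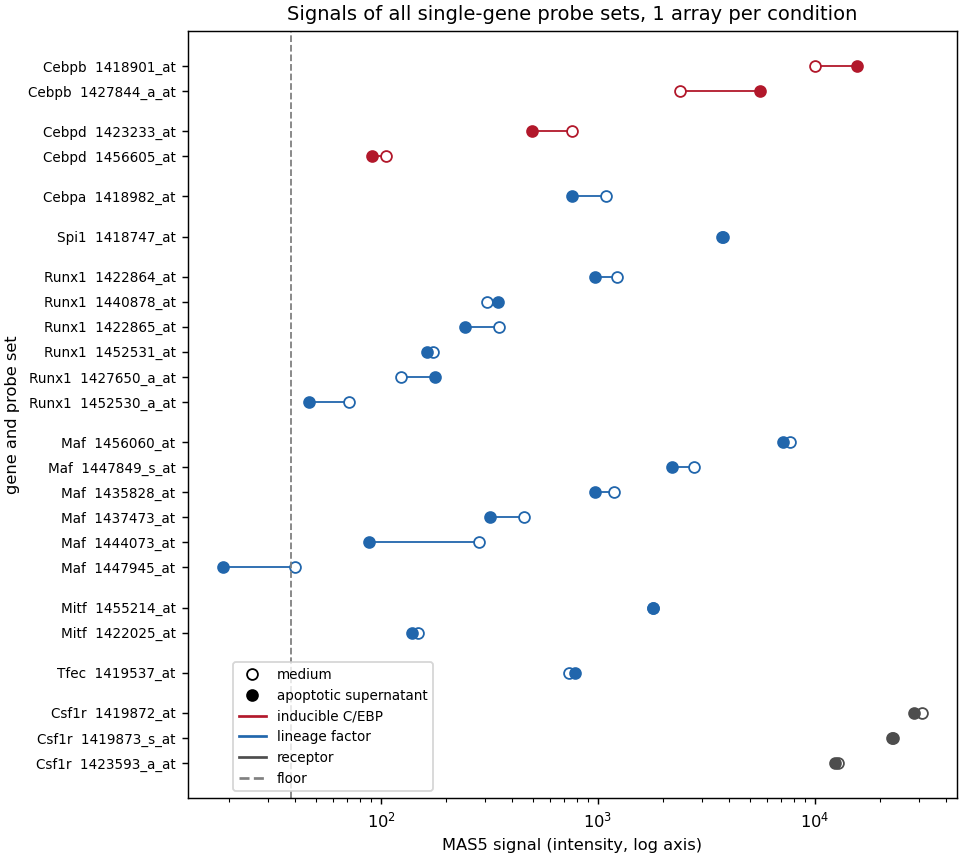
MAS5 signal (intensity, log axis) of all 24 single-gene probe sets of the 9 members, 1 line per probe set, with medium as an open circle and the apoptotic supernatant as a filled circle (1 array per condition), and a dashed line at the floor of 38.4. Both Cebpb probe sets run to the right (9955 to 15690 and 2376 to 5570), both Cebpd probe sets and all 6 of Maf run to the left, and Spi1 and the brighter Mitf probe set have circles that overlap.

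The lineage factors Spi1, Mitf and Tfec had nearly equal signals on both arrays. Spi1 read 3758 with medium and 3709 with the supernatant, a ratio of 0.987. Mitf read 1799 and 1797 on its brighter probe set, a ratio of 0.999, and 148 and 139 on the dimmer one, 0.938. Tfec, whose expression is largely restricted to macrophages and related cells, read 736 and 779, a ratio of 1.06. In these 3 genes the arrays differed by less than the disagreement between probe sets of a gene. Together with Maf and Csf1r on their brightest probe sets they are the 5 members within 1.1-fold, and 50.3% of all measured genes lay within that bound.

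Csf1r had bright and nearly level signals. Its 3 probe sets read 30999 and 28572, 22525 and 22949, and 12735 and 12301 with medium and supernatant. The ratios were 0.922, 1.02 and 0.966, so 2 probe sets lay slightly lower and 1 slightly higher. Of genes with a mean signal of at least 4096, 8.67% had a ratio as low as the brightest Csf1r probe set. The largest difference among the 3 probe sets was 1.08-fold.

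Maf had lower signals with the supernatant on all 6 of its probe sets, by amounts that varied widely. The brightest read 7647 in medium and 7139 after the supernatant, 1.07-fold lower. The next read 2773 and 2188 (1.27-fold lower) and the third 1188 and 969 (1.23-fold lower). The 3 dimmer probe sets included the largest difference. The first of these read 456 and 318, 1.44-fold lower, and the next read 284 and 88.3, 3.21-fold lower. The dimmest read 40.3 and 18.7, the latter under the floor, so its ratio is a bound of at least 1.05-fold lower. Over the 5 probe sets with both signals above the floor the median log2 ratio was -0.34, against -0.10 on the brightest. The size of the Maf difference thus depends on the probe set, and which transcripts each one reads was not analysed here.

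Runx1 had probe sets on both sides. The brightest gave 1217 with medium and 967 after the supernatant, 1.26-fold lower, and 2.32% of 2931 genes of like brightness (mean signal from 1024 up to 4096) had a ratio as low. Of the other 5, those reading 349 and 243, 173 and 162, and 70.9 and 46.3 were lower as well. The remaining 2, at 309 and 347 and at 123 and 178, were higher, the latter by 1.45-fold. Over all 6 the log2 ratios ran from -0.61 to 0.54, and the mean log2 signal gave a ratio of 0.906. No common direction was therefore read from the Runx1 probe sets.

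By the brightest probe set 0 of 9 members reached a 2-fold difference in either direction, while 0.960% of all measured genes were higher and 0.843% lower by that much. At a 1.5-fold mark 1 member was higher (Cebpb) and 1 lower (Cebpd), against 3.71% and 4.47% of all measured genes. Cebpd lay close to that mark and fell short of it, with a log2 ratio of -0.57, in median-centred and loess-corrected arrays and with the floor as a pseudocount. With all probe sets of a gene averaged Cebpd was at -0.41, and Maf, at -0.67, passed the mark. That average was taken before flooring and includes the Maf probe set with a signal under the floor. Of the 24 probe sets 1 of Cebpb was higher and 1 of Maf lower by at least 2-fold, where 0.974% and 1.06% of 22172 measured probe sets were. With so few members these counts cannot be set apart from the background. Of the 9 genes 7 had a ratio below 1, as had 54.6% of all measured genes, and of the 24 probe sets 18 did, as had 55.6% of all measured probe sets. Spi1 and Mitf are among those 7 by the signals as deposited, with log2 ratios of -0.02 and 0.00, and lay just above 0, at 0.01 and 0.03, when the arrays were centred on their medians. The median log2 ratio of the members was -0.10.

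**Figure D3:**
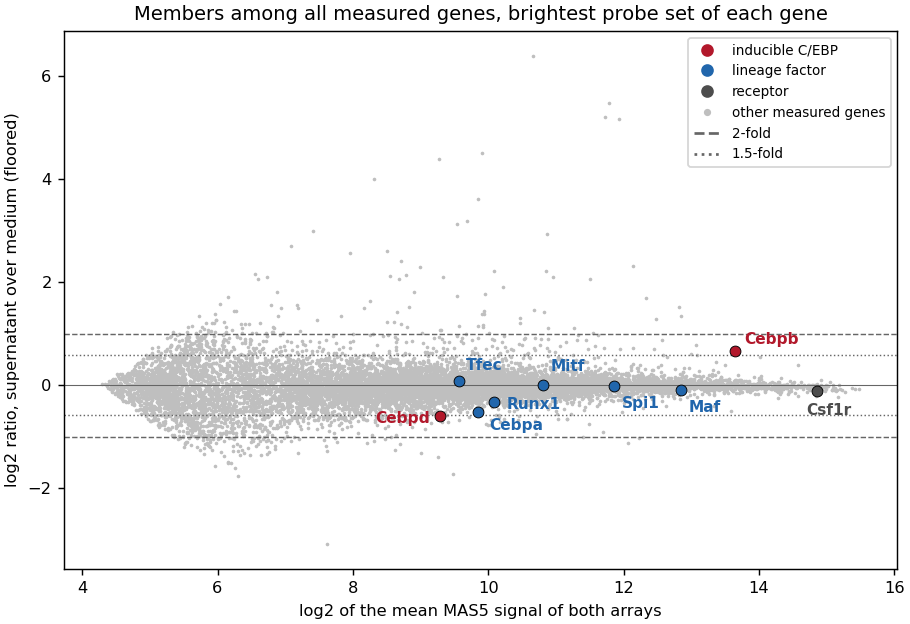
Log2 ratio of supernatant to medium, from floored signals, against the log2 of the mean MAS5 signal of both arrays, for the brightest probe set of each of 11977 measured genes (grey) and the 9 members (coloured by class), with dashed lines at 2-fold and dotted lines at 1.5-fold. Cebpb (0.66) lies above the dotted line at a signal where few genes do, Cebpd (-0.60) lies at the lower dotted line beside Cebpa (-0.53), and Spi1, Mitf, Tfec, Maf and Csf1r lie near 0.

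The 2 classes, inducible C/EBP members and lineage factors, were compared by their medians. The 2 inducible members had log2 ratios of 0.66 and -0.60, so that their median was 0.03, and the 6 lineage factors had a median of -0.06 and ran from -0.53 (Cebpa) to 0.08 (Tfec). The difference of the medians was 0.09, and it was 0.36 with all probe sets of a gene averaged. It hides a pair that differed in opposite ways, since Cebpb lay 0.72 above and Cebpd 0.55 below the lineage median on the log2 scale. The difference depends on where Cebpa is placed, and it was -0.51 when Cebpa was counted with Cebpb and Cebpd. On the brightest probe sets the widest gap between members was that of Cebpb and Cebpd, which is within the inducible class, whereas with all probe sets averaged it was that of Cebpb (0.94) and Maf (-0.67). The latter rests on an average taken before flooring, which includes the Maf probe set with a signal under the floor. Neither gap has a replicate check.

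Genes related to these factors were read from lists of relatives, partners and target genes. Of 7 measured genes in a list of C/EBP relatives, other leucine zipper factors and Tribbles proteins (Trib1, a pseudokinase that promotes the breakdown of C/EBP alpha), 1 was at least 2-fold higher and 0 were lower, with a median log2 ratio of 0.13. Nfil3, a repressor that binds C/EBP-like and PAR zipper sites, was this gene (382 and 1783, 4.67-fold higher). Batf3, a zipper factor of dendritic cell development, read 63.5 and 117, 1.84-fold higher. Atf4, which dimerizes with C/EBP proteins, read 3169 and 2352, 1.35-fold lower, and its second probe set above the floor also gave 1.35-fold, but the average of all its probe sets, the one under the floor included, gave a log2 ratio of 0.50. Batf read 222 and 249.

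Of 15 measured ETS and IRF factors 0 were at least 2-fold higher or lower, and the median log2 ratio was 0.02. With all probe sets of a gene averaged Elk3, at a log2 ratio of 1.16 against 0.10 on its brightest, was at least 2-fold higher. Ets2, an ETS factor that Ras and ERK signalling activates, was 1.64-fold higher on its brightest probe set (2546 and 4180) and 1.53-fold on the next (444 and 680), while the remaining one was under the floor on both arrays and brought the average of all 3 to a log2 ratio of -0.43. Ets1 was 1.36-fold lower (612 and 450). Irf1 read 1681 and 1363, and Spic, a PU.1 relative of red pulp macrophages, was dim at 59.5 and 41.3. Irf8, which pairs with PU.1 on composite sites, read 2454 and 2106, a gene named after its values were seen.

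Among 10 measured MAF, RUNX and MiT relatives 0 were at least 2-fold higher or lower, with a median of -0.05. Tfeb, the MiT member best known as a regulator of lysosomal genes, read 419 and 270, 1.55-fold lower, unlike its relatives Mitf and Tfec above. Runx3 read 220 and 289, Maff, a small Maf protein, 171 and 142, and Nfe2l2, the oxidative stress factor that pairs with small Mafs, 5510 and 6566. Of 17 other haematopoietic lineage regulators 0 reached 1.5-fold in either direction on their brightest probe sets, and their median was 0.07. Those farthest from 0 were Myb (27.9, under the floor, and 53.6, a bound of 1.40-fold), Lyl1 (678 and 543), Gata2 (77.3 and 94.6) and Ikzf1 (1989 and 2347). With all probe sets averaged Rxra was at a log2 ratio of -0.60, past 1.5-fold, against 0.07 on its brightest. Gata2 (-0.19) and Zeb2 (-0.14) also changed sides.

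Of 21 measured ligands and signalling genes of the M-CSF receptor, 1 was at least 2-fold higher and 0 were lower, with a median of 0.02. Csf1, the gene of M-CSF, was this gene, at 76.3 and 215 on its brightest probe set, 2.82-fold higher. A second probe set of Csf1 gave 1.36-fold (49.6 and 67.6), and the other 2 were under the floor with medium and just above it with the supernatant. With all 4 averaged the log2 ratio was 0.91. This is a lower bound, because the average with medium lay under the floor and was set to it. Pik3r1, a regulatory subunit of PI3 kinase, was higher on all 4 of its probe sets, by 1.28-fold to 1.53-fold. Src read 159 and 133, and the adaptor Stap1 3537 and 4180. The ligand was thus higher on a dim probe set while the receptor was nearly level.

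Target genes were read in 4 lists. Of 19 measured PU.1 and C/EBP target genes of macrophages 0 were at least 1.5-fold higher or lower, with a median of -0.02. The largest ratio was that of Cd14, the LPS co-receptor, at 1.30-fold higher (21224 and 27645), followed by Fcgr1 (4684 and 4192), Btk (2163 and 1957) and Itgam (1679 and 1531). Of 12 measured MITF and TFE targets 0 reached 1.5-fold (median -0.05) on the brightest probe sets, where Clcn7 was 1.19-fold higher and Bcl2, Tnfrsf11a and Mcoln1 were 1.20-fold, 1.18-fold and 1.12-fold lower. Their dimmer probe sets differed from these. Of the other 4 of Bcl2, 3 read higher with the supernatant (96.9 and 145, 76.5 and 147, 75.8 and 115) and 1 was 1.03-fold lower. The dimmest probe set of Mcoln1 was 1.81-fold lower (162 and 89.6) and that of Clcn7 1.46-fold lower. With all probe sets averaged Bcl2 (0.36) and Clcn7 (-0.11) changed sides on the log2 scale. Of 11 measured MAF targets 1 reached 1.5-fold, the cytokine gene Il10 (90.5 and 151, 1.67-fold higher), and the list had a median of 0.00. The complement genes C1qa, C1qb and C1qc, also named once their values were known, lay within 1.01-fold. Vsig4, Gas6 and Slco2b1 were within 1.07-fold on their brightest probe sets, while the averages of all probe sets were 0.28 for Gas6 and 0.63 for Slco2b1 on the log2 scale. These averages include dim probe sets. That of Gas6 read 32.5, under the floor, and 50.9, and that of Slco2b1 was under the floor on both arrays (7.65 and 36.4). The remaining Slco2b1 probe set was 1.22-fold lower (204 and 167).

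Acute C/EBP beta and delta targets were the list with the highest median, 0.74 on the log2 scale. Of its 10 measured genes 4 were at least 2-fold higher and 0 lower. They were Il1b (81.3 and 1845, 22.7-fold higher), Ptgs2 (163 and 1486, 9.10-fold), Ccl3 (527 and 1437, 2.73-fold) and Tnfaip6, which read 24.3, under the floor, and 100, a bound of at least 2.61-fold. A dimmer probe set of Ptgs2 read 30.6, under the floor, and 60.2, a bound of at least 1.57-fold. Il6, Csf3, Hp and Nos2 did not reach the floor on either array, and Saa3 (4780 and 4301) and Lcn2 (71.1 and 62.8) were slightly lower. Il1b, Ptgs2 and Ccl3 were known to be high in these data when the list was drawn up, and they are also targets of other factors, so the list is no independent evidence on Cebpb. Of 13 measured housekeeping genes 0 reached 1.5-fold. Their median was -0.05, with Pgk1, Tbp, Polr2a and Eef1a1 the farthest from 0 at 1.06-fold to 1.09-fold lower.

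**Figure D4:**
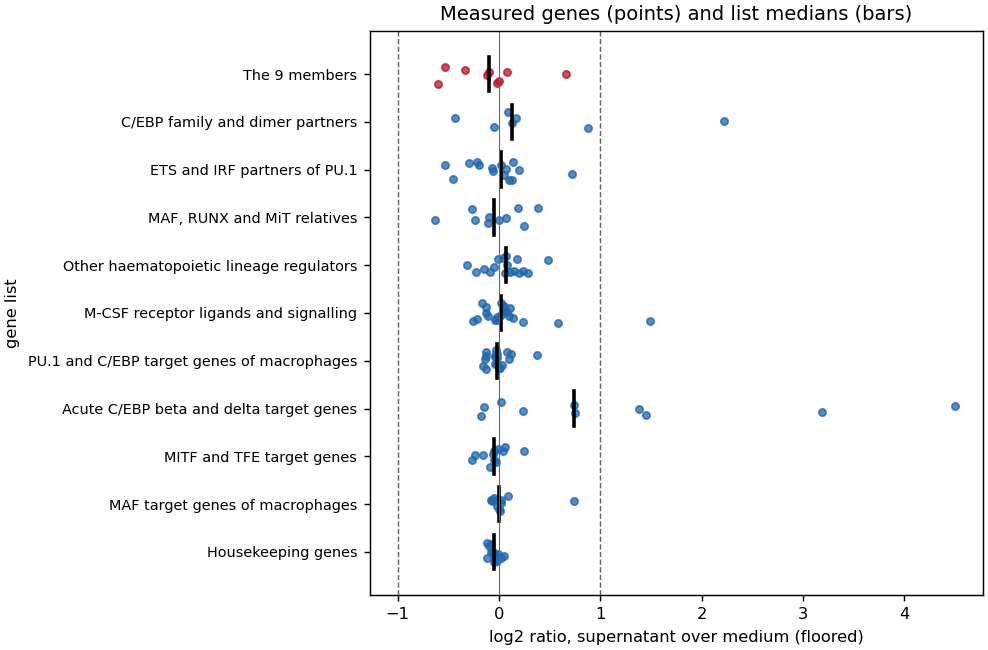
Log2 ratio of supernatant to medium, from floored signals, for the 9 members and for the measured genes of 10 lists (a point per gene), with bars at the medians and dashed lines that mark 2-fold. The acute C/EBP target list has a median of 0.74 and 4 genes beyond the upper line, while the PU.1 and C/EBP target, MITF, MAF and housekeeping lists have medians between -0.05 and 0.00 and no gene beyond it.

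The labelled cell type was checked against marker genes. All 9 macrophage markers with a probe set, Csf1r among them, were above the floor, and their signals summed to 134547 with medium and 138277 with the supernatant. One of them, the engulfment receptor Mertk, was 2.23-fold higher. Of 8 T cell markers with a probe set 7 were under the floor on both arrays, among them Cd3d, Cd3e and Cd3g, and Zap70 read 208 and 313. Their summed signal was 315 and 377. Of 6 neutrophil and precursor markers 4 did not reach the floor and Elane and Ngp lay above it with the supernatant alone, at 51.8 and 51.5. Their summed signal was 52 and 138. The part of such cells in the C/EBP results was not tested. The markers of B cells, dendritic, mast, stromal and erythroid cells had summed signals of at most 217 on either array. In bulk RNA fewer cells of a type and less RNA per cell cannot be told apart.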

How the data were processed

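RNA of BMDMs was labelled with the GeneChip 3' IVT Express kit and hybridized to the Affymetrix Mouse Genome array, 1 array per condition. The authors deposited MAS5 signals, an intensity for each of 45101 probe sets, and the submitters' processing notes name MAS5. The 2% trimmed mean of each array was 500.0, the mark of a global MAS5 scaling. Conditions came from the labels.

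Probe sets were named from the annotation of the platform, which gave 34958 a single gene and 932 several genes and did not list 9211. Symbols were looked up by Entrez identifier in RefSeq (GRCm38.p6), and 0 changed. Probe sets with several genes were not used, which left Ppia and Hbb-bt of the list genes without a value, and other list genes that the annotation did not name were not analysed here. The floor of 38.4 is the 95th percentile, on whichever array was higher, of 80 olfactory and vomeronasal receptor probe sets. Log2 ratios of floored signals were taken on the brightest probe set of each gene (mean of both arrays). The SD of 0.25 is that of the difference between the 2 brightest probe sets of a gene, both above the floor, divided by the square root of 2. It covers no error between arrays or cultures. There is no replicate and no test, and having only 2 arrays limits precision. The lists are those described in the report, with 4 genes named from each by the size of the ratio. The members, the lists and the motifs were chosen with earlier results of these data known. Motifs were searched on both strands in RefSeq windows before the start sites. Alternatives were other scalings, floors and probe set choices. The steps were tested on simulated data. Python 3.11.15, numpy 2.4.6, pandas 2.3.3, statsmodels 0.14.6 and matplotlib 3.10.9 were used.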

Additional observations from a re-analysis of the deposited data

How the results depend on the processing

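No paired analysis was possible because there is a single array for medium and another for the supernatant, and for the same reason no array could be left out. The counts of members at least 2-fold higher and lower, 0 and 0, were the same under 9 alternatives: median-centred, quantile normalized or loess-corrected arrays (span 30%), no floor, the floor raised to 76.8 or lowered to 10.0, the floor as a pseudocount, all probe sets of a gene averaged on the log2 scale, and probe sets with the suffix _s, _x or _a left out. No floor, the floor at 76.8 or 10.0 and the suffix rule could not change these counts. The brightest probe set of each member read above 76.8 on both arrays and had no such suffix, so its log2 ratio stayed the same. With a 1.5-fold threshold the counts were 1 and 1. The difference between inducible C/EBP members and lineage factors, 0.09, was 0.36 with all probe sets averaged and -0.51 with Cebpa placed beside Cebpb and Cebpd. It was 0.13 with Csf1r among the lineage factors. Over the 9 alternatives the log2 ratio of Cebpb ran from 0.65 to 0.94, Cebpd from -0.60 to -0.41, Cebpa from -0.53 to -0.50, Runx1 from -0.34 to -0.14 and Maf from -0.67 to -0.07. The lowest Maf value comes from the average of all probe sets, taken before flooring, which includes the one under the floor. Of 180 list counts under these alternatives 175 stayed within 1.5 times. With all probe sets averaged, genes at least 2-fold higher went from 1 to 0 in the M-CSF receptor list and from 0 to 1 among ETS and IRF factors. The former count rests on Csf1, whose averaged ratio is a lower bound set by the floor. Without the suffixed probe sets no Csf1 probe set was left, and the M-CSF receptor list again had 0. With the floor at 10.0, 1 MAF, RUNX and MiT relative was higher and 1 other lineage regulator lower, against 0 and 0. The number of all genes at least 2-fold higher and lower, 115 and 101, came to 369 and 464 without a floor, 975 and 1158 with the floor at 10.0, 77 and 27 with it at 76.8, 137 and 66 when quantile normalized, 136 and 71 under loess, and 167 and 157 with all probe sets averaged. Dim signals limit the ratios of Csf1 and of the dimmest Maf probe set. The disagreement among the other Maf and Runx1 probe sets, all above the floor, was not tested for a cause.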
